A study of Mus musculus with 24 samples.

Results

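Il6ra and Socs3, the receptor and the feedback inhibitor of interleukin 6 (IL-6) signalling, were described in the tibialis anterior muscle of mice that lack HIRA in their muscle fibres. HIRA is a chaperone that deposits the histone variant H3.3 outside DNA replication. The members were every probe row annotated Il6ra or Socs3, which gave 3 rows of 26423 on the array, 2 for Il6ra and 1 for Socs3, and 2 genes of 17742. Both genes had been selected because their level differed between the groups below, so that difference is described and not tested. HiraCKO animals carried 1 Hira allele flanked by loxP sites and 1 null allele together with Cre driven by the myofibre gene Myf6 (Myf6 cre/+; Hira flox/-). Control animals carried the same Cre with 1 floxed and 1 intact allele (Myf6 cre/+; Hira flox/+), so both groups express Cre, control fibres keep 1 intact copy, and the null copy of HiraCKO animals lies in all their cells. All animals were 6 months old on a mixed C57BL6/J;129S1/SvImJ background, and total RNA of each of 4 animals per group was hybridised 3 times, giving 24 arrays. Animals 1 and 2 of each group come from a lower and animals 3 and 4 from a higher series of animal numbers in the labels, and the labels do not say what these series stand for.

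IL-6 binds its receptor subunit, encoded by Il6ra, and the pair then engages gp130, encoded by Il6st, which the cytokines of the family share. Janus kinases bound to gp130 phosphorylate STAT3, which enters the nucleus and induces, among other genes, Socs3. The SOCS3 protein binds gp130 and the kinases and shuts the signal down, a feedback loop, and it also acts on the receptors for leptin, G-CSF and insulin. Skeletal muscle releases IL-6 during contraction, and the IL-6 receptor can be shed from cells by ADAM proteases.

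The arrays measured probe intensity, given here as deposited or as log2, and means are given with the SD over 4 animals. The Hira probe had log2 values of 8.63, 9.30, 8.52 and 8.83 in HiraCKO animals and 8.85, 9.11, 8.92 and 8.99 in control animals, so the groups overlapped (difference -0.15 ± 0.17 SE, adjusted p = 0.623 with limma, where the threshold was 0.05). Its place in the gene is unknown here, so it does not check the labels. The 12 measured markers of muscle fibres had a list mean of 18.06 ± 0.23 in HiraCKO and 18.25 ± 0.14 in control muscle, and 0 of them were at the dim end of the arrays in both groups. Over all genes the median difference was -0.066.

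The genes lie on chromosomes 3 (Il6ra) and 11 (Socs3) of the mouse genome. Their promoter windows, from 250 bases before to 50 after the annotated start, are shown because Socs3 is a textbook target of STAT3. The sequences are those of RefSeq on build GRCm38.p6, chr3:89913147-89913446 for Il6ra and chr11:117969317-117969616 for Socs3, both read 5′ to 3′ on the minus strand, with capitals marking a match to the STAT motif TTCNNNGAA.
Il6ra: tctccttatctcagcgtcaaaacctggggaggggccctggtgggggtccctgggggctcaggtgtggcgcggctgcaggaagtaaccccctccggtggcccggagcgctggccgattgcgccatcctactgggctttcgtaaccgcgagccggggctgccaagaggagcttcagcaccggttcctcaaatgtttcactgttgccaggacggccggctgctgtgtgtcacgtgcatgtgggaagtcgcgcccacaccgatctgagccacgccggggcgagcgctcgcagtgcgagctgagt
Socs3: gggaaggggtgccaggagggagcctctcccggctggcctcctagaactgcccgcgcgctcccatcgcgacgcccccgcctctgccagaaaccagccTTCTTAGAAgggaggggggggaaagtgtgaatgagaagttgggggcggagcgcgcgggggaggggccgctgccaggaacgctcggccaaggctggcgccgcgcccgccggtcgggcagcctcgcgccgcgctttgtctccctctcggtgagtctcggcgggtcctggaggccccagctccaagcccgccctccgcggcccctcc
The Socs3 window held 1 match, TTCTTAGAA, whose first base is base 97 of the window, and the Il6ra window held 0. The motif is its own reverse complement, so both strands were searched at once. It occurs in 2726 of 32851 promoter windows of this length (8.30%) and in 11 of the 104 pathway genes that have a window (10.6%). The first share is of windows and the second of genes, so the shares are not directly comparable. A match is a string of letters and not a measured binding site.

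The brighter Il6ra row separated the groups on every array. HiraCKO animals 1 to 4 had mean intensities of 2760, 3024, 2154 and 2055 on this row, and control animals 1 to 4 had 752, 1176, 989 and 917. Each HiraCKO animal thus lay above each control animal, with a gap of 0.81 on the log2 scale between the lowest HiraCKO and the highest control animal. On single arrays the values ran from 1630 through a median of 2545 to 3673 in HiraCKO and from 678 through 916 to 1262 in control muscle. The mean log2 intensity was 11.27 ± 0.27 in HiraCKO and 9.89 ± 0.27 in control animals, a difference of 1.38 or 2.61-fold. In bulk muscle, more cells of a type that makes a transcript and more transcript per cell cannot be told apart.

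The dimmer Il6ra row did not separate the groups. Its animal means were 546, 497, 653 and 406 in HiraCKO and 517, 479, 384 and 443 in control muscle. HiraCKO animals 1 and 3 lay above all control animals, HiraCKO animal 2 below 1 of them and HiraCKO animal 4 below 3. The mean log2 intensity was 9.02 ± 0.29 in HiraCKO and 8.82 ± 0.18 in control animals, a difference of 0.19 or 1.14-fold, against 1.38 on the brighter row. The annotation gives both rows the same gene symbol, RefSeq lists 2 curated transcripts of Il6ra, and the place of each probe in them is unknown here.

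The Socs3 row separated the groups, with a smaller difference than the brighter Il6ra row. HiraCKO animals had intensities of 2121, 1721, 2152 and 1592, and control animals had 1167, 963, 1119 and 1128. The 4 HiraCKO animals lay above the 4 control animals, by a gap of 0.45 on the log2 scale. Array values ran from 1544 through a median of 1946 to 2533 in HiraCKO and from 756 through 1116 to 1286 in control muscle, so no array overlapped either. The mean log2 intensity was 10.88 ± 0.22 in HiraCKO and 10.09 ± 0.12 in control animals, a difference of 0.79 or 1.72-fold. The groups thus did not overlap in 2 of the 3 rows. Of all genes, each read from its brightest row, 17.5% had no overlap, and these 2 genes had been chosen by their group difference.

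**Figure D1:**
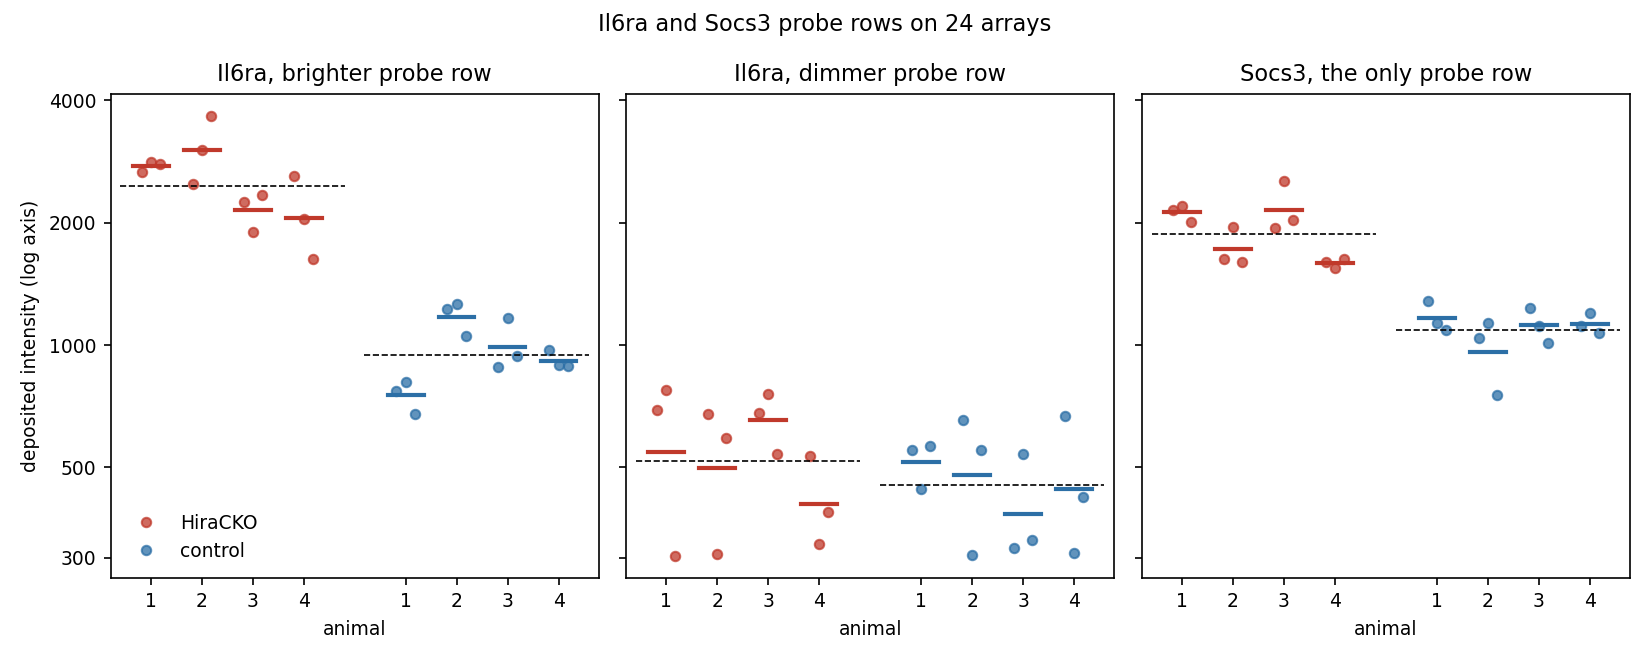
Deposited intensity (log axis) of the 2 Il6ra rows and the Socs3 row by animal, HiraCKO in red and control in blue. Points are hybridisations, bars the animal means and dashed lines the group means; levels of different rows are not comparable. The groups are apart for the brighter Il6ra row and for Socs3 and overlap for the dimmer Il6ra row.

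Repeat hybridisations of the same RNA showed how firmly each row was measured. The SD between hybridisations of an animal was 0.20 (log2) for the brighter Il6ra row, 0.16 for Socs3 and 0.50 for the dimmer Il6ra row. Over all rows its median was 0.20, and 90.5% of rows had a smaller one than the dimmer Il6ra row; the brighter row lay at the middle of all rows, and 35.6% of rows had a smaller one than Socs3. On the dimmer row 7 of the 24 arrays, 3 of HiraCKO and 4 of control muscle, gave intensities of 303 to 331, and the other 17 spread from 388 to 774 (a limit of 350, set after the values were seen, divides them). These 7 arrays came from 6 animals, each of which also had a hybridisation above that limit. Its SD between animal means was 0.24. Each animal mean averages 3 hybridisations, which makes its spread smaller, so this SD is not directly comparable with the 0.50 between single hybridisations.

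The brighter Il6ra row differed by 1.39, 1.24 and 1.51 in hybridisations 1, 2 and 3 taken alone, and in each of them 4 of 4 HiraCKO animals were above all control animals. Socs3 differed by 0.64, 0.82 and 0.89, also with 4 of 4 HiraCKO animals above all control animals each time. The dimmer Il6ra row differed by 0.29, 0.34 and -0.054, with 3, 2 and 1 of the 4 HiraCKO animals above all control animals.

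By series of animal numbers, the brighter Il6ra row differed by 1.62 among animals 1 and 2 of each group and by 1.14 among animals 3 and 4. Socs3 differed by 0.85 among animals 1 and 2 and by 0.72 among animals 3 and 4. For the dimmer Il6ra row the differences were 0.066 and 0.32. With 2 animals against 2, the spread of these values was not estimated. Across all 18 alternative settings and omissions tried, the difference stayed between 1.14 and 1.62 for the brighter Il6ra row, 0.72 and 0.87 for Socs3, and 0.066 and 0.33 for the dimmer Il6ra row.

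**Figure D2:**
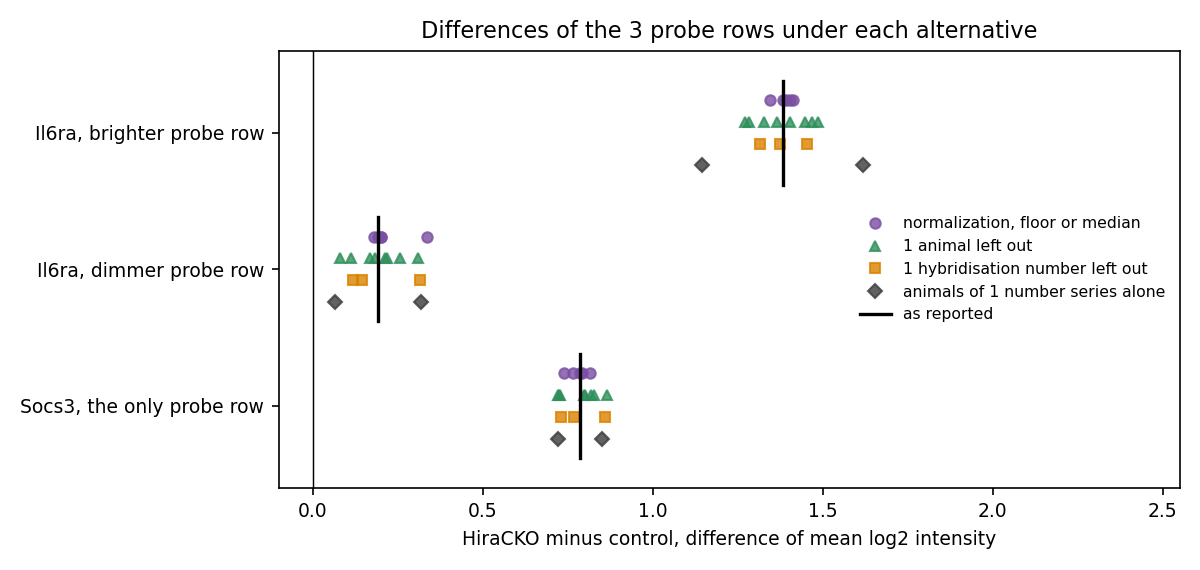
HiraCKO minus control difference of mean log2 intensity for each row under other normalizations, floors or the median of hybridisations, with 1 animal or 1 hybridisation number left out, and within each series of animal numbers. The black lines mark the reported 1.38, 0.19 and 0.79; every point of the 3 rows lies above 0.

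Within the groups, the correlation of Il6ra with Socs3 did not pass the test. After each group's mean was removed, the brighter Il6ra row and Socs3 correlated over the 8 animals at r = -0.25 (exact permutation within groups, two-sided, p = 0.543; Spearman rho = -0.26, p = 0.531), and at 0.085 without control animals 1 and 2. The dimmer Il6ra row and Socs3 gave r = 0.64 (exact permutation p = 0.172; rho = 0.69, p = 0.125), which dropped to 0.14 without HiraCKO animals 3 and 4 and so rests on them. The 2 Il6ra rows gave r = -0.074 (exact permutation p = 0.880; rho = -0.095, p = 0.830), and 0.046 without control animals 1 and 2. Of 12 relations computed, each had a Benjamini-Hochberg adjusted p of 0.908 (0.979 for rho). HiraCKO animals 1 and 2, the highest for the brighter Il6ra row, were not the pair highest for Socs3, which was animals 1 and 3.

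**Figure D3:**
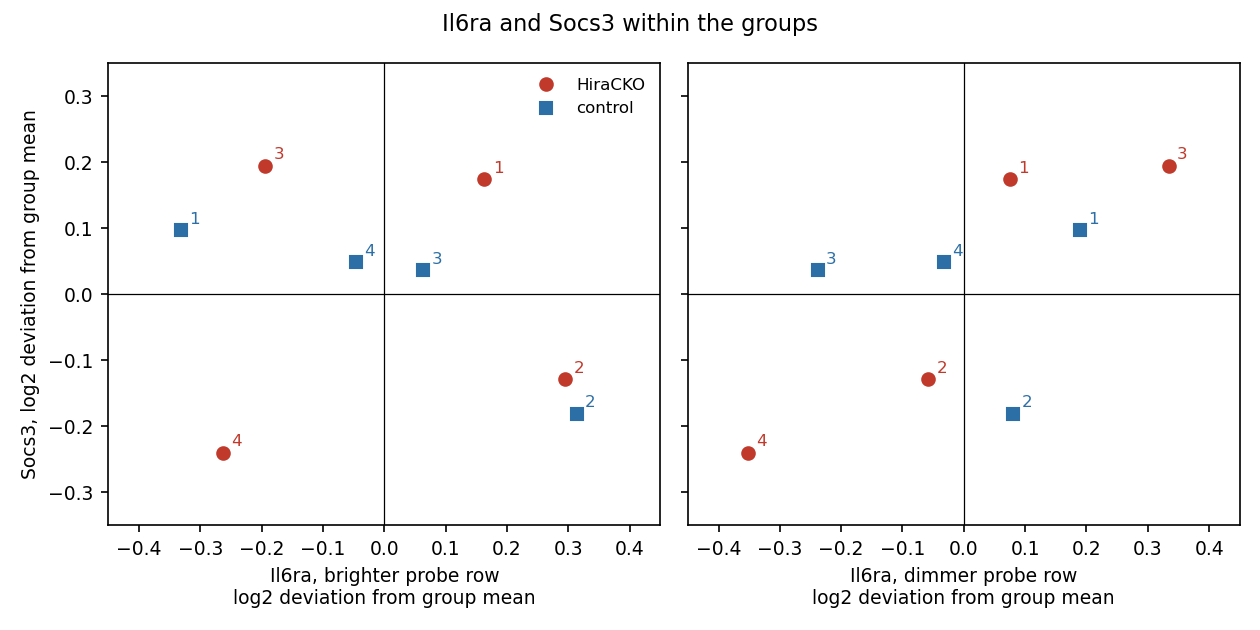
Deviation of each animal from its group mean (log2) for Socs3 against the brighter (left) and the dimmer (right) Il6ra row, HiraCKO as circles and control as squares, numbered by animal. HiraCKO animal 4 is low in all 3 rows, and HiraCKO animal 3 is high for Socs3 and low for the brighter Il6ra row.

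Markers of other cell types differed between the groups as follows. Of all 17742 genes, 4.28% rose and 5.01% fell past the threshold with limma, and 4264 had an unadjusted p under 0.05. In 17.5% of all genes, each taken singly, the groups did not overlap. Whether a marker list departs from these shares was not tested. Of 14 measured macrophage markers 1 rose (Mpeg1, a pore-forming protein of macrophages, by 1.89 on the log2 scale, adjusted p = 0.0273 with limma; 0.74 on its other row) and 1 fell (Cd163, a scavenger receptor, difference -0.93, adjusted p = 0.0490). The macrophage differences ran from -0.93 to 1.89 (median 0.43). In 11 of the 14 markers the difference was above 0, and 5 had an unadjusted p under 0.05 with limma. The macrophage list mean was 10.09, 10.80, 11.60 and 10.79 in HiraCKO and 9.81, 10.06, 10.24 and 10.76 in control animals. The groups thus overlapped, with a list mean higher by 0.60 in HiraCKO. Dim in both groups, that is, below an intensity of 125 (log2 6.96), the highest 5th percentile of any array, were 0 of the 14. Of 11 endothelial markers 0 rose and 2 fell (Emcn by 0.59 and Icam2 by 0.80, adjusted p = 0.0346 and 0.0102 with limma). Their 11 differences ran from -0.80 to -0.25 (median -0.43), and 5 had an unadjusted p under 0.05 with limma. The endothelial list means did not overlap, at 12.15 to 12.78 in HiraCKO and 12.80 to 13.20 in control animals. Neutrophil markers gave 0 calls among 10 (2 at an unadjusted p under 0.05), with list means of 7.88 to 8.14 in HiraCKO and 7.82 to 8.32 in control animals, and 3 of the 10 were dim in both groups. Of 10 lymphocyte markers 1 rose (Cd3e, a chain of the T cell receptor complex, difference 0.60, adjusted p = 0.00629 with limma) and 1 fell (Cd79b, a chain of the B cell receptor, difference -0.48, adjusted p = 0.0389), with list means of 8.32 to 8.55 in HiraCKO and 8.25 to 8.59 in control animals. Among 6 markers of satellite cells there were 0 rises and 1 fall, that of Calcr, the calcitonin receptor of quiescent satellite cells, which was dim in HiraCKO and at least 1.34-fold lower there (adjusted p = 0.00222 with limma). The satellite cell list means did not overlap, at 9.85 to 10.08 in HiraCKO and 10.12 to 10.21 in control animals. Fibroblast markers (10), liver parenchyma markers (5) and muscle fibre markers (12) gave 0 calls with limma, with 4, 0 and 1 at an unadjusted p under 0.05. The 12 muscle fibre differences were all below 0, from -0.35 to -0.11 (median -0.17, against -0.066 over all genes).

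Over the 8 animals with group means removed, the brighter Il6ra row correlated with the endothelial mean at r = 0.41 (exact permutation p = 0.335; rho = 0.33, p = 0.434), and at 0.96 without control animals 1 and 2. Leaving out control animal 1 alone gave 0.95 (exact permutation, adjusted p = 0.0833, the smallest that a single relation can reach with 1 animal left out). Without HiraCKO animal 4 alone r was 0.15, and without HiraCKO animal 2 alone it was 0.18. The value for this relation thus turned on single animals, and its r ran from 0.15 to 0.95 over the omissions of 1 animal or hybridisation. With the macrophage mean this row gave r = -0.25 (exact permutation p = 0.609; rho = -0.12, p = 0.764), and -0.56 without control animals 1 and 2. Socs3 gave 0.091 with the macrophage mean (exact permutation p = 0.908; rho = 0.12, p = 0.844) and 0.23 with the endothelial mean (exact permutation p = 0.620; rho = 0.26, p = 0.637), and -0.35 and -0.13 without HiraCKO animals 3 and 4. The dimmer Il6ra row gave 0.14 with the macrophage mean (exact permutation p = 0.809) and 0.49 with the endothelial mean (exact permutation p = 0.292), and -0.56 and 0.77 without HiraCKO animals 3 and 4. The animal with the highest macrophage mean, HiraCKO animal 3, lay below HiraCKO animals 1 and 2 for the brighter Il6ra row and was the highest for Socs3. The part of these cells in the Il6ra and Socs3 differences was not tested further.

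The rest of the pathway was read from 10 lists ordered by role, without the members. The lists reach beyond IL-6 signalling to other interleukin receptors and to immediate early and stress genes. All their genes are called pathway genes here. Of 134 measured genes 12 passed the test, which is 8.96%, against 9.28% of all 17742 genes. Of the 134, 4 rose (2.99%, against 4.28% of all genes) and 8 fell (5.97%, against 5.01%), and their median difference was -0.025. In 21 of them (15.7%) the groups did not overlap. These shares were near those of all genes. An unadjusted p under 0.05 with limma was reached by 4264 of all 17742 genes. It was reached by 8 of 28 STAT3-induced and acute phase genes, 8 of 26 immediate early and stress genes and 3 of 7 other SOCS genes. So did 3 of 13 other brakes, 3 of 24 other interleukin receptors, 1 of 9 genes that SOCS3 acts on and 1 of 5 family receptors. The counts for the other lists are given below. The lists of ligands, receptors, shedding partners, kinases and STATs, other SOCS genes and other brakes each had 0 rises. Falls were 0 of 10 ligands, 1 of 5 receptors, 0 of 6 shedding partners and 0 of 9 kinases and STATs. They were 2 of 7 other SOCS genes and 1 of 13 other brakes. With 4.28% of all genes higher and 5.01% lower, whether these short lists differ from all genes was not tested. With the number series as a block 14 of the 134 passed the test, while 0 passed among animals 1 and 2 alone and 1 among animals 3 and 4 alone, with 2 animals against 2.

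**Figure D4:**
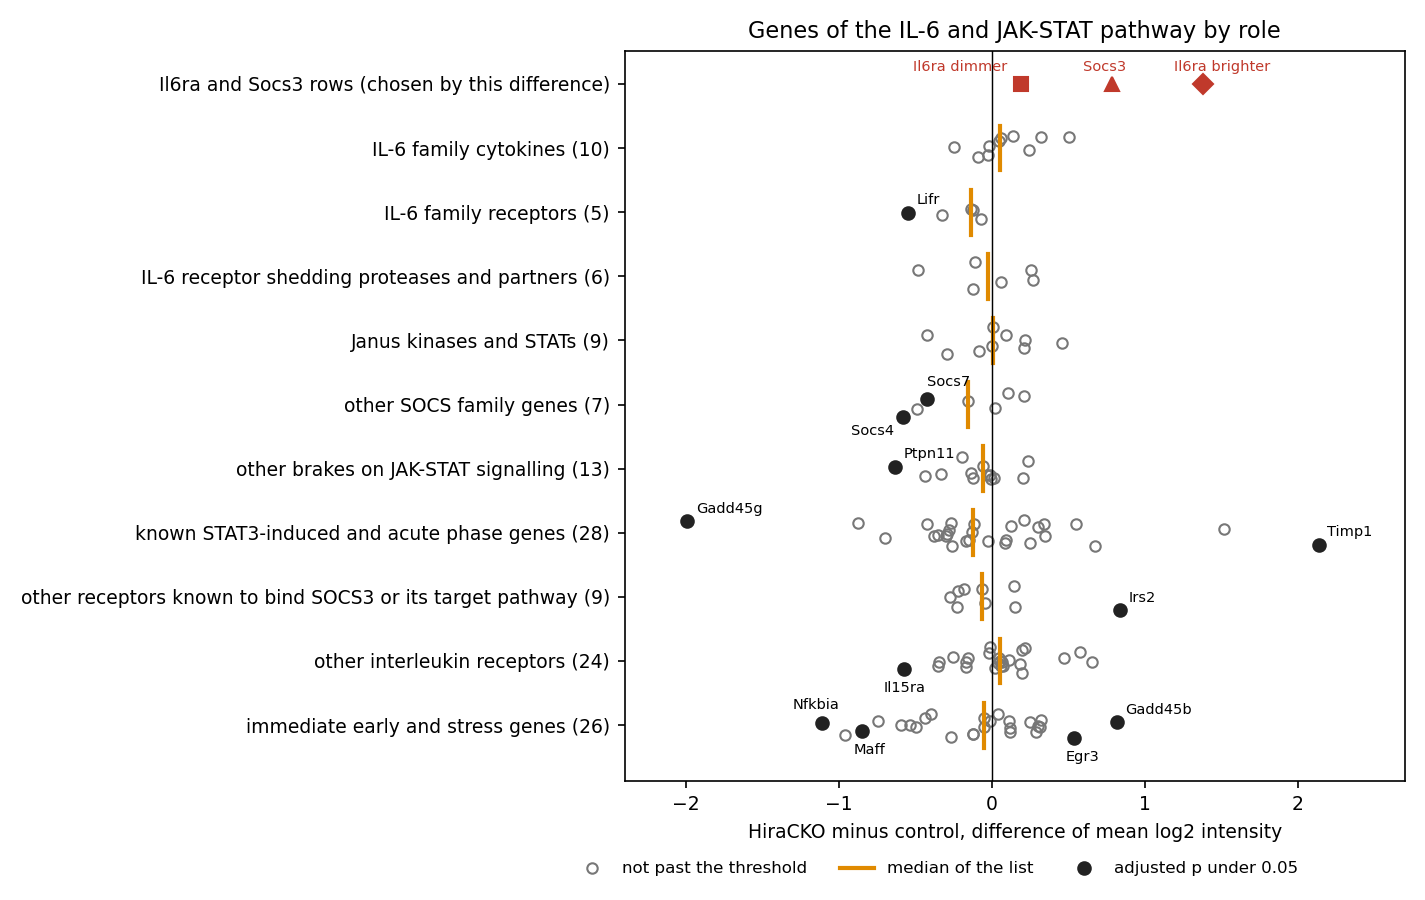
HiraCKO minus control difference of mean log2 intensity for each measured gene of 10 pathway lists (number in parentheses), with filled points past the threshold (limma, adjusted p under 0.05), orange bars at each list's median, and the Il6ra and Socs3 rows in red. Of 134 genes, 4 filled points lie above 0 and 8 below it.

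Of the 10 measured ligands of the IL-6 family 0 passed the test, 0 of them at an unadjusted p under 0.05, and their differences ran from -0.25 to 0.51. Il6 itself was at the dim end of the arrays, with log2 values of 7.15, 6.88, 6.93 and 7.23 in HiraCKO and 6.91, 6.70, 7.03 and 6.99 in control muscle. These overlap, and the control mean was below the dim limit of 6.96 (difference 0.14, 95% interval -0.14 to 0.42, adjusted p = 0.539 with limma). The ligands of smallest p were Cntf, ciliary neurotrophic factor, at 0.51 ± 0.24 SE (adjusted p = 0.232 with limma, dim in control muscle), and Ebi3, a cytokine subunit that pairs with the product of Il27, at 0.32 ± 0.16 SE (adjusted p = 0.262).

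Of 5 measured receptors of the family 0 rose and 1 fell, and all 5 differences were below 0 (median -0.13). The faller was Lifr, the receptor for leukaemia inhibitory factor, which pairs with gp130. It had log2 values of 12.76, 12.63, 12.65 and 12.56 in HiraCKO and 13.23, 13.35, 13.08 and 13.14 in control animals, with no overlap (difference -0.55 ± 0.11 SE, adjusted p = 0.0115 with limma; -0.24 on its other row). The mean of both rows differed by -0.40 and did not pass (adjusted p = 0.0697 with limma). Il6st, gp130 itself, had 14.13, 14.40, 14.03 and 13.10 in HiraCKO and 14.12, 14.20, 14.05 and 13.82 in control animals (difference -0.13, 95% interval -0.65 to 0.39, adjusted p = 0.773 with limma). The other receptor subunits differed by -0.12 (Osmr), -0.33 (Cntfr) and -0.070 (Il27ra).

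Among 6 proteases and partners that shed the IL-6 receptor 0 passed the test with limma, and 2 had an unadjusted p under 0.05. Timp3, an inhibitor of the shedding protease ADAM17, had 14.20, 14.12, 14.07 and 14.20 in HiraCKO and 14.36, 14.86, 14.87 and 14.42 in control animals (difference -0.48 ± 0.14 SE, adjusted p = 0.0598 with limma). Rhbdf1, an inactive rhomboid that escorts ADAM17, differed by 0.27 ± 0.11 SE (adjusted p = 0.178). The proteases themselves, Adam10 and Adam17, differed by -0.12 and by 0.26 (95% interval -0.14 to 0.66 for Adam17).

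Among 9 measured Janus kinases and STATs 0 passed the test with limma, and 3 had an unadjusted p under 0.05. Stat3 had 9.74, 10.21, 9.91 and 10.08 in HiraCKO and 9.92, 9.47, 9.15 and 9.57 in control animals, which overlap (difference 0.46 ± 0.17 SE, adjusted p = 0.122 with limma). Jak2 had 12.67, 12.30, 12.70 and 12.43 in HiraCKO and 13.29, 12.93, 12.75 and 12.81 in control animals, without overlap (difference -0.42 ± 0.15 SE, adjusted p = 0.110). Jak1 differed by -0.29 on its brighter row, without passing the test, and by 0.12 on its other row.

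Of 7 other SOCS genes measured, 0 rose and 2 fell, and 3 of the 7 differences were above 0. Socs7, a family member with a role in insulin signalling in mice, fell by 0.42 (adjusted p = 0.0424 with limma), a call lost on leaving out any animal except control animal 3. Socs4, reported to act on the EGF receptor, fell by 0.58 with overlapping groups (adjusted p = 0.0474; -0.22 on its other row), a call lost on leaving out any animal except control animal 2 and HiraCKO animal 4. Socs1, a STAT-induced inhibitor like Socs3, differed by 0.10 (adjusted p = 0.731 with limma) and Socs2, which restrains growth hormone signalling, by -0.49 (adjusted p = 0.158). Cish, Socs5 and Socs6 differed by -0.16, 0.21 and 0.021. Whether the difference of Socs3 exceeds theirs was not tested, since Socs3 was chosen by it.

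Of 13 other brakes on the pathway 0 rose and 1 fell. Ptpn11 encodes SHP2, a phosphatase that binds the same site of gp130 as SOCS3. Its log2 values were 14.80, 14.77, 14.74 and 14.89 in HiraCKO and 15.56, 15.49, 15.29 and 15.39 in control animals, with no overlap (difference -0.63 ± 0.11 SE, adjusted p = 0.00483 with limma). The call was kept when any 1 of the 8 animals was left out.

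Of 28 measured genes known to be induced by STAT3 or in the acute phase 1 rose and 1 fell, with a median difference of -0.12. Timp1, an inhibitor of matrix proteases, had 9.87, 10.98, 11.17 and 11.86 in HiraCKO and 9.38, 8.73, 8.66 and 8.56 in control animals (difference 2.14 ± 0.35 SE, adjusted p = 0.00343 with limma). Its groups did not overlap, HiraCKO animal 1 was closest to the controls, and the difference was 1.37 among animals 1 and 2 and 2.90 among animals 3 and 4. Gadd45g, a stress-induced regulator of growth arrest, had 11.94, 11.59, 12.34 and 12.91 in HiraCKO and 12.83, 15.31, 15.02 and 13.57 in control animals, with control animal 1 inside the HiraCKO range (difference -1.99 ± 0.49 SE, adjusted p = 0.0290). That call was lost on leaving out control animal 3 or HiraCKO animal 1, 2 or 3. Mt2, a metal-binding metallothionein named after its value was seen, differed by 1.52 without passing the test (adjusted p = 0.0780 with limma). The members of this list that passed the test thus moved opposite ways, and Socs3 was not counted among them.

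Of 9 receptors and adaptors that SOCS3 is known to act on 1 rose and 0 fell. Irs2, an adaptor of the insulin receptor, had 11.51, 11.61, 11.85 and 11.39 in HiraCKO and 10.36, 10.80, 11.30 and 10.54 in control animals, without overlap (difference 0.84 ± 0.19 SE, adjusted p = 0.0207 with limma). Leaving out control animal 1 or 4, or HiraCKO animal 2 or 3, ended the call. Of 24 other interleukin receptors 0 rose and 1 fell, Il15ra, the chain that presents interleukin 15, with 10.91, 11.06, 10.78 and 10.86 in HiraCKO and 11.59, 11.55, 11.38 and 11.37 in control animals (difference -0.57 ± 0.11 SE, adjusted p = 0.0109).

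Immediate early and stress genes, a class that cytokines and stress induce within a short time, moved in both directions. Of 26 measured, 2 rose and 2 fell, and the median difference was -0.052. Gadd45b, a stress-induced gene, differed by 0.82 ± 0.22 SE with overlapping groups (adjusted p = 0.0383 with limma; 0.65 on its other row), a call lost without control animal 1 or 4 or HiraCKO animal 1, 2 or 3. Egr3, a transcription factor, differed by 0.54 ± 0.15 SE (adjusted p = 0.0467), a call lost without any animal except HiraCKO animal 4. Maff, a small MAF transcription factor, fell by 0.85 (adjusted p = 0.0126), and Nfkbia, the inhibitor of NF-kappaB, fell by 1.11 (adjusted p = 0.0213), the second call lost without control animal 3 or HiraCKO animal 1 or 3. The mean of the list was 11.57, 11.31, 11.18 and 11.03 in HiraCKO and 11.40, 11.64, 11.70 and 10.90 in control animals, so the groups overlapped. Its within-group correlation was 0.52 with the brighter Il6ra row (exact permutation p = 0.224; 0.56 without control animals 1 and 2) and 0.096 with Socs3 (exact permutation p = 0.795; -0.085 without HiraCKO animals 3 and 4).

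**Figure D5:**
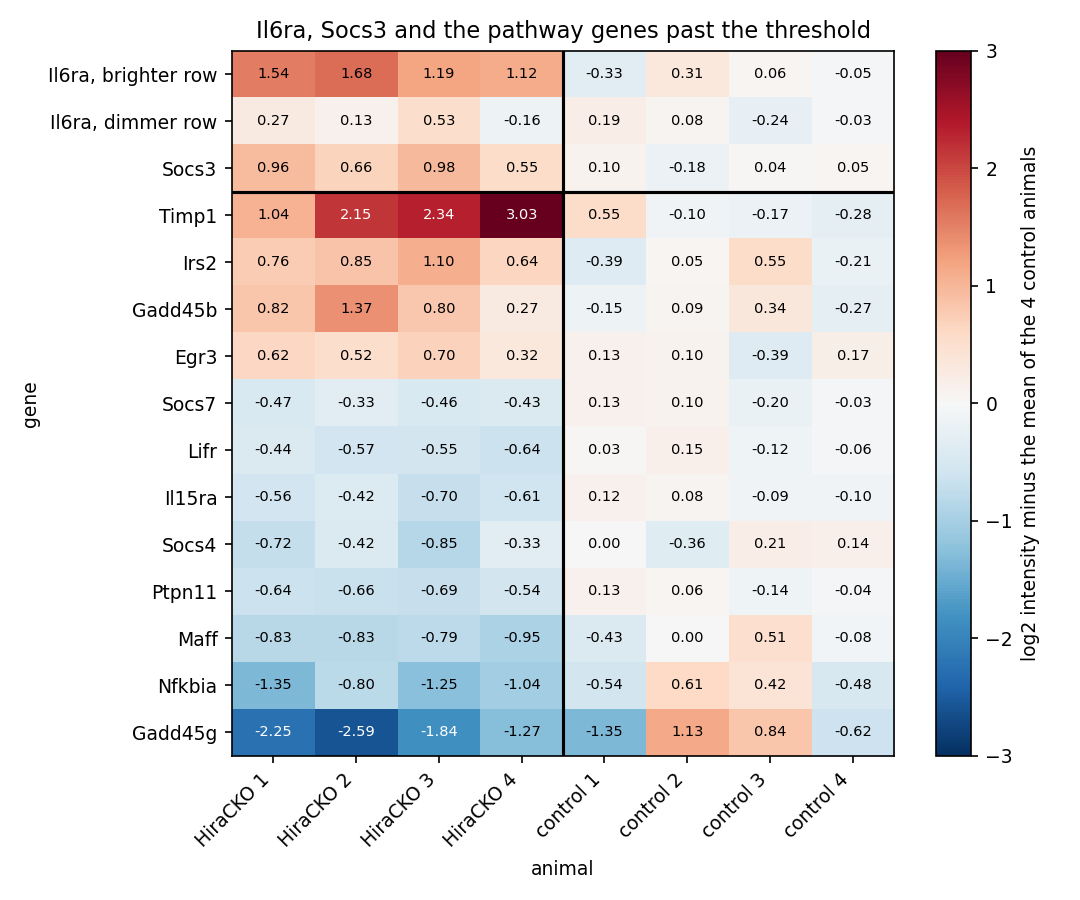
Log2 intensity of each animal minus the mean of the 4 control animals, for the 3 member rows (above the line) and the 12 pathway genes past the threshold. Il6ra and Socs3 were chosen as genes by the group difference, and every row annotated to them is shown. Among the 12 genes 4 are higher and 8 lower in HiraCKO muscle, and Gadd45g spreads widely among controls.

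The genes whose levels followed each row most closely within the groups were found by Pearson correlation of group-centred values over 8 animals, among 14852 genes above the dim limit. For the brighter Il6ra row they were Pmp22, Crip2, Ncmap, Olfr1030 and Anapc13 (r of 0.972 to 0.977). For the dimmer Il6ra row they were Iqgap1, Sphk2, C130026I21Rik, Dhrs9 and Zfp712 (r of 0.968 to 0.983). For Socs3 they were Frmd3, Cxcl11, Mirlet7e, Emilin3 and Traf5 (r of 0.956 to 0.967). The brighter Il6ra row and Socs3 shared none of their 5 genes, and r exceeded 0.9 for 78, 33 and 37 genes. With so few animals and so many genes these values are a description only. Of the 15 genes, Iqgap1 (difference 0.79, adjusted p = 0.0409 with limma), Cxcl11 (0.51, adjusted p = 0.0330) and Emilin3 (-0.47, adjusted p = 0.0241) differed between the groups.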

How the data were processed

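Total RNA of the tibialis anterior of 8 mice was hybridised 3 times each, per the labels. The authors' deposited values were linear probe intensities for 26423 rows and 24 arrays, of which all had the same median of 626, so they had been scaled to it. The sources used here do not give the scanner, background correction or probe positions, and the dye is named differently in different labels. The number of animals limits the precision.

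Intensities below 38.8, the 5th percentile of all values, were set to that floor, log2 was taken and the hybridisations of an animal were averaged. In the platform annotation 20377 rows have 1 symbol, 0 have more and 6046 lack one; 18213 rows matched a current RefSeq symbol (GRCm38.p6) and 2126 a synonym. The brightest row stood for a gene, which left 17742. The animal means were fitted in limma 3.58.1 (R 4.3.3), with Benjamini-Hochberg adjustment over all genes and a threshold of 0.05. It called 1647 genes, 759 higher and 888 lower in HiraCKO. A group mean below 125, the highest 5th percentile of an array, was called dim. Named were the members, Hira, each pathway gene past the threshold (the 2 of smallest p where a list had none), and the 5 genes most like each row; others are core members of the pathway and markers past the threshold. The members and lists were chosen with earlier results of these data known. Where nothing says that animals came from separate litters, p-values measure the spread between these animals. Alternatives covered normalization, floor, dim rows, rows of a gene, hybridisations, variance model, number series and omission of each animal or hybridisation.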

Additional observations from a re-analysis of the deposited data

Results flagged for a closer look

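The Egr3 value of control animal 3, 8.19 on the log2 scale, stood apart from the other control animals, which lay between 8.68 and 8.75. Among 44 groups of 4 animals checked it was the only one with a sample this far from the rest. Chance flags about 1 group in 20, so 1 among 44 is not more than chance gives.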

How the results depend on the processing

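The differences of the 3 member rows kept their sign under all 18 alternatives and moved by less than the SD between animals. The counts of genes past the threshold, 1647 (759 higher and 888 lower in HiraCKO), depended more on the setting. They were 2569 (1240 higher) with quantile normalization, 1309 higher with cyclic loess, 3149 (1334 and 1815) with 24 arrays and the animal as a random block, 3609 (1276 and 2333) with array weights, 62 (51 and 11) among animals 1 and 2 alone and 508 (311 and 197) among animals 3 and 4 alone. Leaving out 1 animal or hybridisation gave 945 to 1693 genes, 522 to 727 higher and 418 to 966 lower. Of the pathway's 12 calls (4 higher and 8 lower), 7 (1 higher) were left with the higher floor, 2 higher with the median of hybridisations, 28 (8 and 20) with the random block, 21 (16 lower) with array weights, 0 (0 and 0) among animals 1 and 2 and 1 (1 and 0) among animals 3 and 4, where fewer animals were tested. With 1 animal or hybridisation left out there were 5 to 11 (1 to 4 higher, 4 to 8 lower). With the hybridisation number as a replicate block the counts were 2978 genes (1293 and 1685) and 27 pathway genes (9 and 18). Arrays of the same number correlated at a median r of 0.042 and others at -0.017, and 10 of 24 correlated best with their own number. The numbers were thus not taken to pair the samples, and whether they mark a batch was not tested.

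No within-group correlation passed the test, but with 1 animal left out only 144 permutations remain, and a single relation among 12 cannot go below an adjusted p of 0.0833. The brighter Il6ra row with endothelial markers (r = 0.95 without control animal 1) and the dimmer row with Socs3 (r = 0.83 without control animal 2) reached that limit. Each had the smallest p that exact permutation allows there, 0.0069 before adjustment, and could not have passed the threshold whatever its r. No conclusion is drawn from them, since r varied with the omission. The signs turned for the dimmer Il6ra row with the immediate early genes under quantile normalization (-0.022), and under the median of hybridisations for the 2 Il6ra rows (0.36), the dimmer row with macrophage markers (-0.16) and Socs3 with macrophage markers (-0.10); the causes were not tested. With 1 animal or hybridisation left out, r ran from -0.61 to 0.22 between the Il6ra rows, from -0.81 to 0.014 between the brighter row and Socs3, and from -0.29 to 0.94 between the dimmer row and Socs3. The brighter row ran from 0.15 to 0.95 with endothelial markers. The dimmer row ran from -0.61 to 0.33 with macrophage and from -0.27 to 0.38 with immediate early genes. Socs3 ran from -0.46 to 0.60 with macrophage, from -0.36 to 0.52 with endothelial and from -0.20 to 0.33 with immediate early genes.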
